A study of Mus musculus with 12 samples.

Results

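The potassium channel gene family was taken as all protein-coding genes whose mouse symbol starts with Kcn. Of 94 such genes in the table of 38293 genes, 50 reached at least 10 raw counts in at least 4 of the 12 libraries, and these 50 members are described here. They comprised 19 of 40 voltage-gated subunits, 10 of 15 inward rectifiers, 5 of 14 two-pore channels, 6 of 8 channels gated by calcium or sodium, and 10 of 17 auxiliary subunits. The choice used the size of the counts and no difference between groups. All 50 also passed the filter on low counts of the differential test, which was run on 14770 genes.

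Potassium channels let potassium leave the cell and so return the heart muscle cell to rest after each action potential. Voltage-gated channels open early and late in repolarisation, inward rectifiers hold the resting potential and sense ATP or acetylcholine signals, two-pore channels carry a background current, and auxiliary subunits set how many pore subunits reach the membrane and how fast they open. Immune cells, fibroblasts, vessels and nerves of the heart carry other members of the same family.

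Polyadenylated RNA was sequenced from left ventricles of healthy C57BL/6J mice, snap frozen 3 days after surgery in which the thorax was opened and 2 volumes of 10 µl were injected into the heart muscle. The 3 groups of 4 libraries differed in what was injected. They received Upy-PEG_antimiR-195, which is the Upy-PEG hydrogel loaded with an oligonucleotide against the microRNA miR-195, or the Upy-PEG hydrogel with no drug, or PBS, the saline vehicle with no drug. All groups thus shared the operation and the injection, no group was left uninjected, and age and sex are not given in the sources used here. Whether each library is a different mouse is not stated either, so the p-values speak of the spread among these libraries, which may be technical.

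The libraries held 22353241 to 30278621 counts on genes and 18668 to 19740 genes with a count. The left ventricular label matched the myosin light chain genes. Ventricular Myl2 averaged 8384, 5414 and 6840 CPM (counts scaled to library size) in antimiR-195, Upy-PEG and PBS libraries, and its atrial counterpart Myl7 8.95, 5.19 and 6.31 CPM. Nppa, also on the list of atrial markers, averaged 877, 975 and 322 CPM in the same order, and its source was not tested. Of 5 tested genes of that list, 2 were higher with Upy-PEG than with PBS and 3 lower. Replicates 2 and 3 of the antimiR-195 group stood apart on the first principal component of all genes, at −60.2 and −40.7 against −8.48 to 33.4 for the other libraries. Their values also declined with gene length, with slopes of −0.229 and −0.135 (log2 CPM for each doubling), where the slopes of the others ran from −0.0415 to 0.122. Values of the antimiR-195 group are therefore also given without both of them, for medians and for the members that lead each comparison. On the second principal component Upy-PEG replicate 1 lay furthest out, at −47.5 against −24.7 to 28.5 for the other libraries. Its slope with gene length, 0.122, was the highest. This library was left out only in the fits that leave out 1 library in turn.

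The microRNA that the drug is directed against, and the places in potassium channel transcripts that match it, are the direct sequence link between the drug and the family. Shown are 7 of the 20 sites, in 6 of the 14 members that hold one. They are the longest match and sites in members whose values are given for this drug below, a choice made with those values known. The first line gives mature miR-195a-5p (RefSeq, GRCm38.p6, chromosome 11, 70235062 to 70235082, plus strand) with its seed, bases 2 to 8, in capitals. The other lines give 3′ UTR windows of the mouse genome (GRCm38, read in the direction of the transcript) with the bases that pair with the seed in capitals. In Kcnj2 the A that follows them is in capitals too. They are chr11:111075241-111075270 (Kcnj2, plus strand), chr4:152391733-152391762 (Kcnab2, minus strand), chr7:24384948-24384977 and chr7:24385149-24385178 (Kcnn4, plus strand), chr7:143426366-143426395 (Kcnq1, plus strand), chr14:20141281-20141310 (Kcnk5, minus strand) and chr19:45793043-45793072 (Kcnip2, minus strand, the first of 4 sites).
miR-195a-5p: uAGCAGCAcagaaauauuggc
Kcnj2: gaaggcttcagaTGCTGCTAttaaggtgat
Kcnab2: aaggctgctcctTGCTGCTcttaaggctgg
Kcnn4, first site: ccctttctgctgTGCTGCTgttcaggaccc
Kcnn4, second site: gagggtacagggTGCTGCTcaccaatccac
Kcnq1: tcaagatgttgaTGCTGCTcttctgatggc
Kcnk5: aggtcctgggttTGCTGCTtgtgtcttccc
Kcnip2: gttccacagggcTGCTGCTctgggtcagca
The search was for TGCTGCT, alone or followed by A, on the transcript strand of the longest annotated 3′ UTR. Matches that overlap were each counted as a site. The later sites of Kcnip2 overlap one another in a repeat, starting at bases 1131, 1134 and 1137 of its UTR. The match was found in 14 of the 49 members with such a UTR (28.6%), against 3300 of 13317 genes (24.8%). Kcnj2 was the single member with the longer match, TGCTGCTA, which 4.54% of all genes held. A match of letters does not show that the microRNA acts there.

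The level of each channel was compared between genes as RPKM, counts scaled to library size and to gene length, since CPM grows with the length of the gene. Averaged over the 12 libraries, 26 members reached at least 1 RPKM, 9 reached at least 10 and 6 stayed under 0.1, with a median of 1.10 RPKM. The first 5 in order, Kcnk3, Kcnip2, Kcng2, Kcnj11 and Kcnh2, held 63.9% of the summed level of the family. The ventricle thus measured a few abundant transcripts of the family and a long tail of scarce ones, and their cells of origin were not tested.

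**Figure D1:**
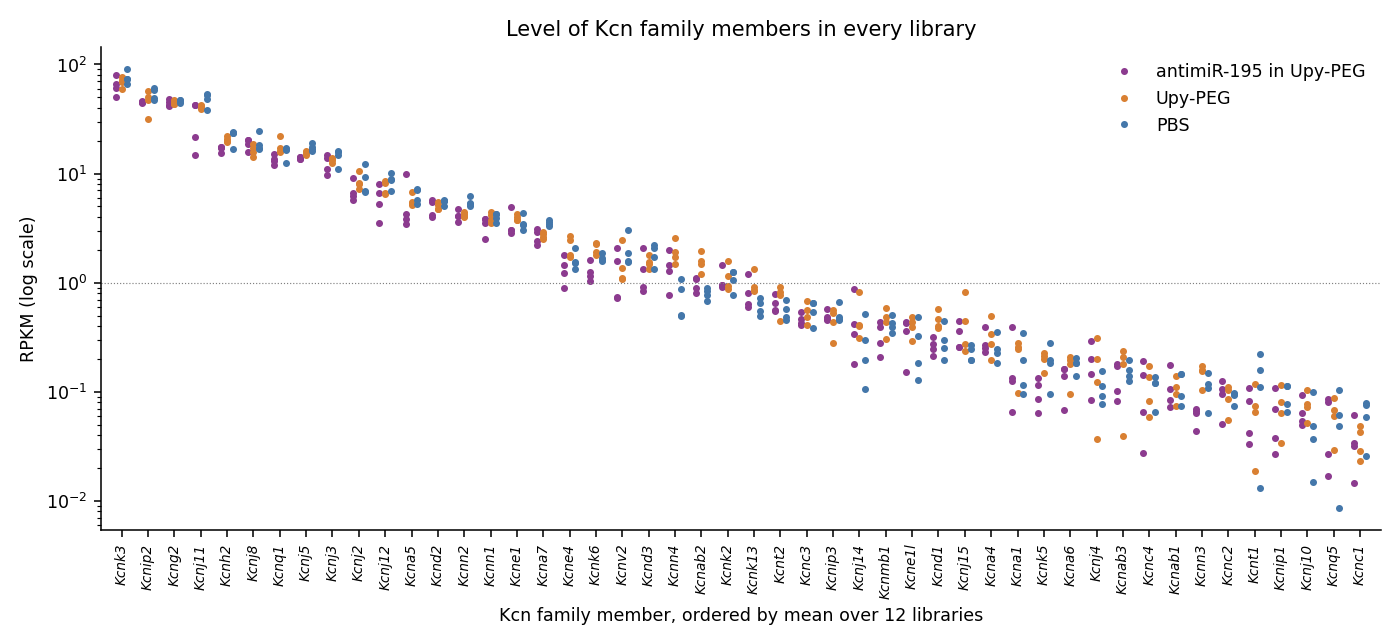
Level of 48 of the 50 members in RPKM on a log axis, ordered by their mean over the 12 libraries, with 1 point per library (for each gene antimiR-195 left, Upy-PEG middle, PBS right) and a dotted line at 1 RPKM. Kcnk3 stood highest at a mean of 69.9 RPKM and Kcnc1 lowest at 0.0437 RPKM, and 24 of the members shown had a mean above the line.

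Among pore subunits outside the voltage-gated and rectifier classes, Kcnk3 (ENSMUSG00000049265, GRCm38 chromosome 5, 30588170 to 30625271) came first in the family. It encodes TASK-1, an acid-sensitive two-pore background channel, and measured 64.5 ± 12.4 RPKM in antimiR-195, 69.5 ± 7.59 in Upy-PEG and 75.7 ± 10.2 in PBS libraries (SD, n = 4 each). Kcnip2 (chromosome 19, 45791839 to 45816061) encodes KChIP2, the partner that brings Kv4 channels of the fast transient outward current to the membrane. Its level was 45.3 ± 0.907 RPKM with antimiR-195, 46.5 ± 10.6 with Upy-PEG and 54.2 ± 6.84 with PBS. The distance from Kcnk3 to Kcnip2 was 2.38 times the SD within groups pooled over the pair. Their ranges over the 12 libraries still overlapped, at 50.1 to 90.3 and 31.8 to 61.4 RPKM. RPKM is scaled to the library total alone, and the order of the hydrogel groups depended on the scaling. In TMM-scaled CPM, Kcnk3 averaged 257, 250 and 293 and Kcnip2 165, 154 and 191 in antimiR-195, Upy-PEG and PBS libraries.

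Among voltage-gated members, Kcng2 (chromosome 18, 80294546 to 80364254) ranked behind Kcnip2 in the family. It encodes Kv6.2, a subunit that makes no channel alone and modifies other pores, and measured 44.3 ± 3.01, 44.9 ± 1.66 and 46.4 ± 1.66 RPKM in antimiR-195, Upy-PEG and PBS libraries. Its mean lay within 0.636 pooled SD of Kcnip2, so this pair was not separated. In TMM-scaled CPM Kcng2 averaged 131 with antimiR-195, 119 with Upy-PEG and 132 with PBS. Kcnh2 (ERG, the rapid delayed rectifier) averaged 19.8 RPKM over all libraries and Kcnq1 (the slow delayed rectifier, with Kcne1) 15.7 RPKM. Kv4 and Kv1 currents are prominent in repolarisation of the adult mouse ventricle, and the transcripts of Kcnd2 (Kv4.2), Kcna5 (Kv1.5) and Kcnd3 (Kv4.3) stood lower, at 5.12, 5.79 and 1.56 RPKM.

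Among inward rectifiers, Kcnj11 (chromosome 7, 46093953 to 46100764), the pore Kir6.2 of the ATP-sensitive channel in heart muscle, led with 30.4 ± 14.3, 40.8 ± 1.45 and 48.1 ± 6.86 RPKM in antimiR-195, Upy-PEG and PBS libraries. Kcnj8, the Kir6.1 pore known from vessels, followed at 18.2 RPKM over all libraries. Kcnj5 and Kcnj3, which together form the channel opened by acetylcholine, averaged 15.6 and 13.4 RPKM, and Kcnj2 and Kcnj12, which carry the resting inward rectifier current, 8.07 and 7.33 RPKM. By the same pooled SD of each pair, Kcnj2 and Kcnj12 were 0.438 apart and were not separated, nor were Kcnq1 and Kcnj5 at 0.0292. The step from Kcnj3 to Kcnj2 was 2.78 pooled SD and that from Kcnj5 to Kcnj3 a smaller 1.49.

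Among channels gated by calcium, Kcnn2 (SK2) and Kcnn1 (SK1) measured 4.599 and 3.80 RPKM over all libraries, and Kcnn4, the intermediate-conductance channel KCa3.1 of macrophages, T cells and fibroblasts, 1.34 RPKM. The scarcest members were Kcnc1 at 0.0437 RPKM and Kcnq5 at 0.0566 RPKM, both better known from neurons. Just inside the count minimum lay Kcnj10, Kcnj4 and Kcnn3, each with at least 10 counts in 5 libraries and median counts of 8, 7.5 and 9. Just outside it lay Kcng4 and Kcnh1, each with 3 such libraries and median counts of 6.5 and 7. The pore of the large-conductance channel, Kcnma1, had a median of 3 counts and a maximum of 9, while its smooth muscle partner Kcnmb1 passed with a median of 45.5. Kcna3, the Kv1.3 channel of T cells, had a median of 1 count and a maximum of 8, too few to describe at this depth.

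Setting Upy-PEG beside PBS addresses the effect of the hydrogel over an injection of fluid. Kcnab2 and Kcnn4, a Kv beta subunit and the KCa3.1 channel, were higher with Upy-PEG, while Kcnn2, Kcna7 and Kcnj5, an SK, a Kv1 and an acetylcholine-gated channel, were lower, and in each of these 5 genes no Upy-PEG library overlapped a PBS library. No member passed an adjusted p of 0.05 in edgeR's quasi-likelihood test, where 0% of all 14770 genes did. At an unadjusted p under 0.05 there were 8 members (16% of 50, against 13.2% of all genes), 4 higher (8%, against 9.33%) and 4 lower (8%, against 3.83%). DESeq2 called 4 members, Kcna7, Kcnab2, Kcnn2 and Kcnn4 (3.42% of all genes), and limma voom with sample weights called 6 members, these and Kcnj5 among them (6.22% of all genes).

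Kcnn4 (ENSMUSG00000054342, chromosome 7, 24370263 to 24386690) measured 4.54, 3.63, 2.98 and 3.44 CPM in the Upy-PEG libraries, against 1.01, 1.06, 2.21 and 1.79 CPM in the PBS libraries. Every Upy-PEG library lay above every PBS library. The log2 fold change was 1.27 ± 0.303 (SE, edgeR adjusted p = 0.0986), the highest among the members, at a depth of 25 to 146 raw counts a library. Kcnab2 (ENSMUSG00000028931, chromosome 4, 152390742 to 152477871), which encodes the auxiliary subunit Kvβ2, measured 9.45, 7.76, 6.71 and 8.61 CPM with Upy-PEG, against 3.71, 4.54, 4.996 and 4.66 CPM with PBS. The groups did not overlap here either, and the log2 fold change was 0.86 ± 0.161 (edgeR adjusted p = 0.0971), the eleventh lowest p of all genes tested. Kcnab2 overlaps the transcript Gm16334 on its own strand, so its count is uncertain to that extent.

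**Figure D2:**
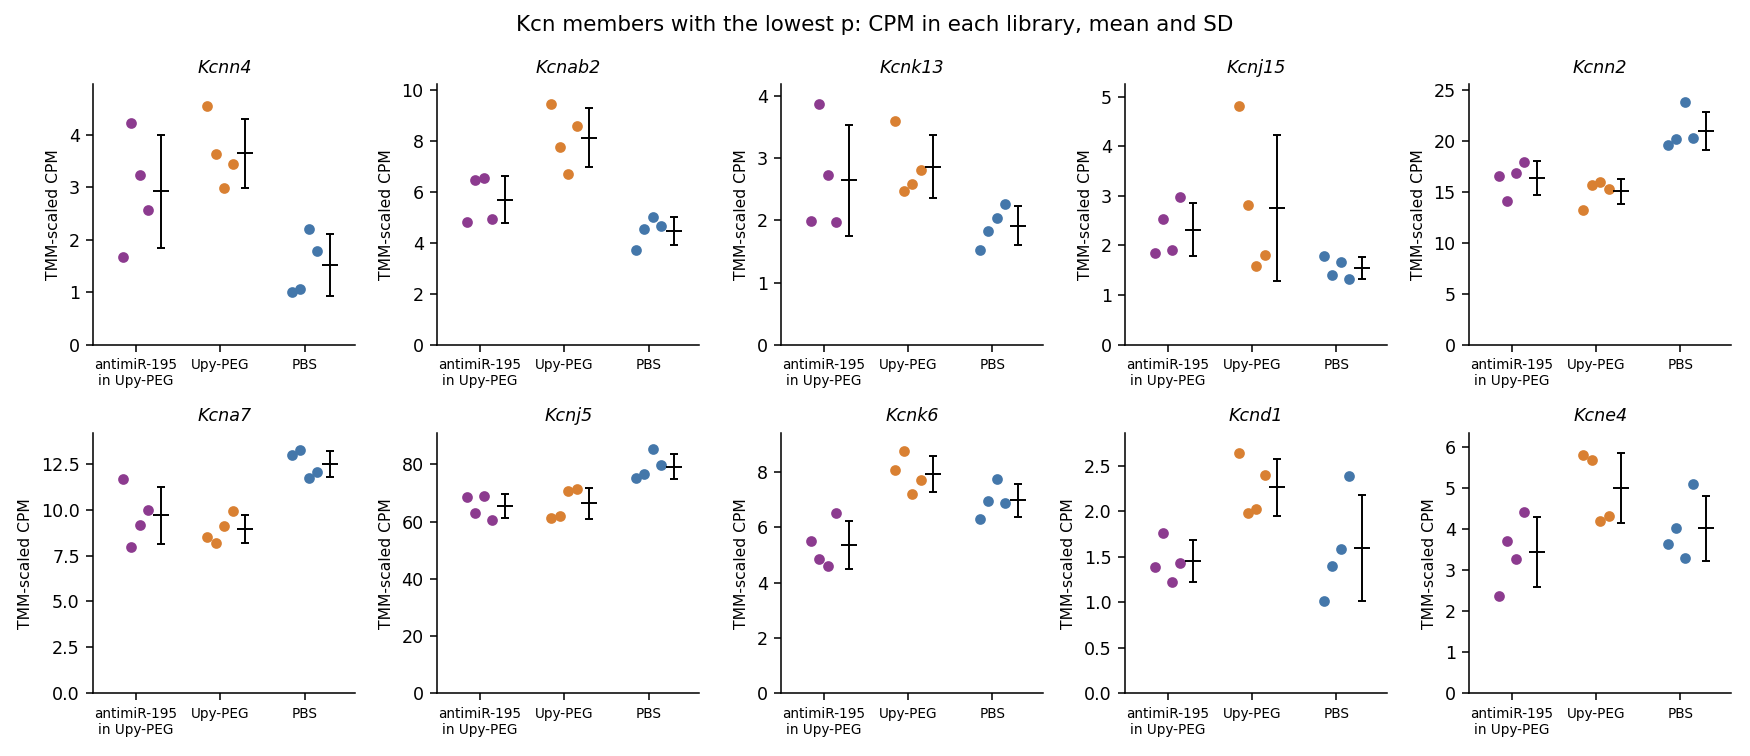
CPM of 10 members, 1 panel per gene with an axis from 0. Points are libraries, the bars beside them group means ± SD, and the groups run antimiR-195, Upy-PEG, PBS from left to right. All but Kcnk13, named after its values were seen, were among the 6 members with the lowest p in at least 1 comparison. Kcnn3, Kcnj8 and Kcnh2 also were, and are not shown. Kcnn4 and Kcnab2 are higher in every Upy-PEG than in every PBS library, Kcnn2, Kcna7 and Kcnj5 lower in every library of both hydrogel groups than in every PBS library, and Kcnk6 lower in every antimiR-195 than in every Upy-PEG library.

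Kcnk13, a two-pore channel of mouse microglia named after its values were seen, also separated the groups. It had 3.60, 2.48, 2.58 and 2.81 CPM with Upy-PEG and 1.53, 1.82, 2.04 and 2.27 CPM with PBS, which put its log2 fold change at 0.59 ± 0.237 (adjusted p = 0.293). Kcnj15, the inward rectifier Kir4.2, had 4.82, 2.81, 1.59 and 1.81 CPM with Upy-PEG and 1.79, 1.40, 1.67 and 1.31 CPM with PBS. Its groups overlapped, and its log2 fold change of 0.84 ± 0.318 (adjusted p = 0.257) drew mainly on Upy-PEG replicate 1.

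On the lower side, Kcnn2 (ENSMUSG00000054477, chromosome 18, 45268860 to 45686024), the small-conductance channel SK2 that links calcium to repolarisation, measured 13.2, 15.7, 16.0 and 15.3 CPM with Upy-PEG, against 19.6, 20.2, 23.8 and 20.3 CPM with PBS. Its log2 fold change was −0.48 ± 0.109 (edgeR adjusted p = 0.0971). Kcna7 (ENSMUSG00000038201, chromosome 7, 45405653 to 45409763), the Kv1.7 pore found in heart and skeletal muscle, measured 8.48, 8.20, 9.13 and 9.94 CPM with Upy-PEG, against 13.0, 13.2, 11.7 and 12.03 CPM with PBS. Both genes were separated without overlap by a modest and even step, and Kcna7 stood at −0.48 ± 0.127 on the log2 scale (adjusted p = 0.114). Kcnj5 (ENSMUSG00000032034, chromosome 9, 32314707 to 32344350), the GIRK4 pore, measured 61.2, 62.0, 70.8 and 71.5 CPM with Upy-PEG and 75.2, 76.6, 85.4 and 79.7 CPM with PBS. This smaller step was −0.26 ± 0.0915 (adjusted p = 0.228). In all, 7 members did not overlap between these groups, 14% of 50 against 9.68% of all genes, 3 of them higher (6%, against 5.91%) and 4 lower (8%, against 3.77%).

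The genes nearest the threshold crossed it in some fits that left libraries out. With antimiR-195 replicates 2 and 3 left out of the shared estimate, Kcnab2, Kcnn2, Kcnn4 and Kcna7 passed in edgeR, at adjusted p = 0.0304, 0.04, 0.0402 and 0.0405, with log2 fold changes of 0.87, −0.48, 1.28 and −0.48. Leaving out antimiR-195 replicate 2 alone gave 3 calls (Kcnab2, Kcnn2 and Kcnn4), leaving out Upy-PEG replicate 3 gave 1 (Kcnab2), and leaving out any other single library gave 0. The share of all genes that passed in these fits is not given here, so these calls are no result about the channels as such. Over all alternatives the adjusted p ran from 0.000366 to 0.321 for Kcnab2, from 0.0051 to 0.321 for Kcnn2, from 0.00595 to 0.328 for Kcnn4 and from 0.0162 to 0.351 for Kcna7.

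Over the whole family the median lay slightly below 0, by an amount that depended on the scaling. Upy-PEG stood below PBS in 30 of 50 members (60%, against 55.3% of all genes), with a median log2 fold change of −0.14 against −0.03 for all genes. Without PBS replicate 2, which held the highest CPM of 17 of the 50 members, the family median was −0.07. The voltage-gated members were lower in 14 of 19 (median −0.17), the inward rectifiers in 6 of 10 (−0.18), the two-pore channels in 3 of 5 (−0.04), the calcium- and sodium-gated in 3 of 6 (0.10) and the auxiliary subunits in 4 of 10 (0.01). Members with a mean of at least 1 RPKM were lower in 20 of 26 (median −0.23), and the scarcer ones in 10 of 24 (median 0.03). Scaling by the library total alone, which moved the median of all genes to 0.07 here, left 27 of 50 members lower with a family median of −0.03, and on the deposited RPKM the family median was −0.02 with a pseudocount of 0.1 and −0.01 with a pseudocount of 1.

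The 13 core repolarisation genes were a list of the main channels of the ventricular action potential and its modulation. With Upy-PEG 12 of 13 were lower than with PBS, with a median of −0.25, and Kcnq1 was at 0.07 ± 0.123, though −0.04 in limma voom. Kcnj11 stood at −0.34 ± 0.259, Kcnj12 at −0.32 ± 0.203, Kcnj8 at −0.32 ± 0.147, Kcnip2 at −0.31 ± 0.172 and Kcnk3 at −0.23 ± 0.15 (log2 fold change ± SE, edgeR). Only Kcnj5 and Kcnj8 of the 13 had an unadjusted p under 0.05, and the adjusted p of the list ran from 0.228 to 0.876. The 12 heart muscle markers were lower in the same comparison in 12 of 12, by a median of −0.30, with summed levels of 74180 to 102400 CPM with Upy-PEG and 102900 to 122200 CPM with PBS. In RNA from whole tissue, fewer cells of a type and less RNA per cell cannot be told apart, and the part of cell numbers in the channel values was not tested.

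**Figure D3:**
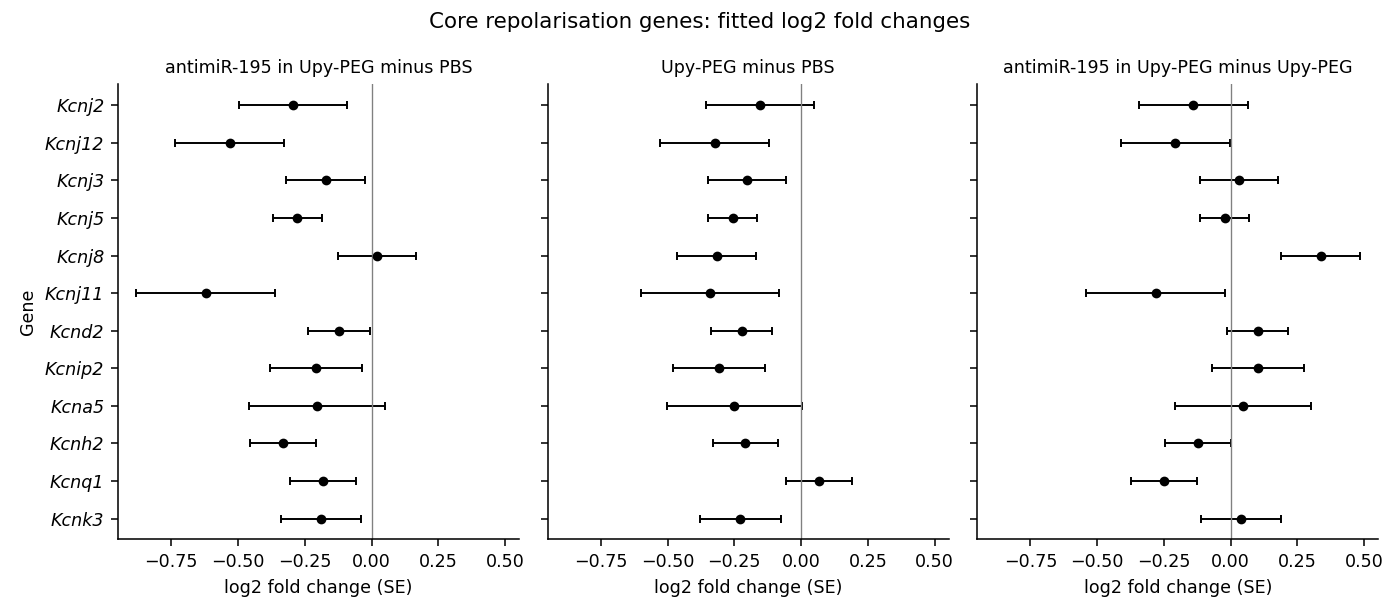
Log2 fold change of 12 of the 13 core repolarisation genes for Upy-PEG_antimiR-195 minus PBS, Upy-PEG minus PBS and Upy-PEG_antimiR-195 minus Upy-PEG; points are edgeR estimates and lines are ± 1 SE. Against PBS 11 of 12 points lie below 0 for antimiR-195 and 11 of 12 for Upy-PEG, and between the hydrogel groups 6 lie below 0 and 6 above.

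The comparison of Upy-PEG_antimiR-195 with Upy-PEG asks what the drug adds to the hydrogel. The two-pore channel Kcnk6 and the beta subunit Kcnab2 were lower with the drug in every library, as were the scarce Kcnd1 and Kcnn3, and Kcnj8 was the member with the highest log2 fold change. No member passed in edgeR (0% of all genes), DESeq2 (0.088% of all genes) or limma voom (0% of all genes). At an unadjusted p under 0.05 there were 7 members (14%, against 13.1% of all genes), 1 higher (2%, against 6.67%) and 6 lower (12%, against 6.4%).

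Kcnk6 (ENSMUSG00000046410, chromosome 7, 29221926 to 29232515) encodes TWIK-2, a two-pore channel that in mouse macrophages lets potassium out during inflammasome activation. It measured 5.52, 4.86, 4.59 and 6.54 CPM in the antimiR-195 libraries, against 8.08, 8.76, 7.22 and 7.72 CPM in the Upy-PEG libraries. The groups did not overlap and the log2 fold change was −0.56 ± 0.139 (edgeR adjusted p = 0.364). With PBS Kcnk6 measured 6.32, 6.96, 7.74 and 6.89 CPM, between the hydrogel groups by its mean of 6.98 ± 0.585. Kcnab2 measured 4.83, 6.46, 6.55 and 4.95 CPM with antimiR-195, all below the 6.71 to 9.45 CPM with Upy-PEG, for a log2 fold change of −0.52 ± 0.16 (adjusted p = 0.364).

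Kcnd1, the Kv4.1 pore, measured 1.39, 1.76, 1.22 and 1.43 CPM with antimiR-195, against 2.64, 1.98, 2.02 and 2.40 CPM with Upy-PEG (log2 fold change −0.64 ± 0.249, adjusted p = 0.364). Kcne4, an accessory subunit that in human channels reduces the KCNQ1 current, measured 2.37, 3.70, 3.27 and 4.41 CPM with antimiR-195 and 5.81, 5.68, 4.21 and 4.32 CPM with Upy-PEG (−0.54 ± 0.209, adjusted p = 0.364). The groups of Kcnd1 were separate and those of Kcne4 overlapped. Kcnn3 (SK3), just inside the count minimum, had 0.232, 0.215, 0.147 and 0.194 CPM with antimiR-195 and 0.466, 0.297, 0.476 and 0.480 CPM with Upy-PEG, a log2 fold change of −1.10 ± 0.357 (adjusted p = 0.364) that rested on 3 to 15 raw counts a library over the 12 libraries.

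Kcnj8, the pore of the vascular ATP-sensitive channel, measured 43.8, 46.0, 48.8 and 34.2 CPM with antimiR-195, against 27.5, 38.4, 34.4 and 36.5 CPM with Upy-PEG. The groups overlapped through antimiR-195 replicate 4, and the log2 fold change was 0.34 ± 0.147 (adjusted p = 0.372). It was 0.19 (adjusted p = 0.767) without replicates 2 and 3, the highest libraries of its group. Kcnq1 was lower without overlap, at 42.7, 37.6, 44.6 and 45.7 CPM with antimiR-195 and 59.3, 48.1, 47.8 and 47.5 CPM with Upy-PEG, but its log2 fold change of −0.25 ± 0.123 had an adjusted p of 0.387. Without replicates 2 and 3, the log2 fold changes were −0.39 for Kcnk6, −0.73 for Kcnab2, −0.68 for Kcnd1, −0.55 for Kcne4, −1.001 for Kcnn3 and −0.195 for Kcnq1, with an edgeR adjusted p between 0.45 and 0.725. In this comparison 5 members did not overlap, 10% of 50 against 4.4% of all genes, with 0 higher (1.94% of all genes) and 5 lower (10%, against 2.46%).

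Over the whole family the values were close to 0. The family median was −0.06 with 31 of 50 members lower (62%, against 50.8% of all genes), where the median of all genes was −0.005, and the core genes were lower in 7 of 13 (median −0.02). Without antimiR-195 replicates 2 and 3 the family median was 0.06 with 29 of 50 higher, and the core genes were higher in 10 of 13 with a median of 0.19, so the sign of these medians rested on those libraries. Scaling by the library total alone, which moved the median of all genes to −0.156, put 45 of 50 members and 12 of 13 core genes lower. The 12 heart muscle markers were higher with antimiR-195 in 10 of 12 (median 0.41), the opposite sign to the core channel genes, and in 12 of 12 (median 0.26) without replicates 2 and 3, where the core median had the same sign. In annotated length, these markers had a median of 1773 bases and the core channel genes 3810 bases, and the part of the length slope in this difference was not tested.

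Members with a site for miR-195 were set beside members without one, as the drug targets that microRNA. The 14 members with a match had a median log2 fold change of −0.09 (5 higher and 9 lower), against −0.04 for the 17 members with no 6-base match. Over all genes the medians were −0.05 for the 3300 genes with a match and 0.02 for the 7245 genes with none. Without replicates 2 and 3 these medians were 0.02 and 0.12 for the members and 0.03 and −0.001 for all genes, so the order over all genes turned round. Kcnj2, with the longest match, stood at −0.14 ± 0.203 and Kcnn4, with 2 matches, at −0.32 ± 0.291. Kcnk5, named after its values were seen, was at −0.82 ± 0.362. Kcnip2, with 4 matches of which the later ones overlap, was at 0.10 ± 0.172. Without both libraries they were at 0.03, −0.78, −0.98 and 0.10 in that order. Members with a match had longer 3′ UTRs, with a median of 1959 bases against 1623 bases, and over all genes the medians were 2294 bases with a match and 705 bases with none.

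The comparison of Upy-PEG_antimiR-195 with PBS joins the hydrogel and its drug. It shares the PBS libraries with the comparison of Upy-PEG with PBS, and no overlap between the comparisons is therefore offered as a result. Kcnn2, Kcna7 and Kcnj5 lay below PBS in every library, and Kcnn4 had the highest log2 fold change. No member passed in edgeR (0% of all genes), DESeq2 (0.643%) or limma voom (0.00677%). At an unadjusted p under 0.05 there were 10 members (20%, against 16.5% of all genes), of which 1 was higher (2%, against 8.65%) and 9 were lower (18%, against 7.89%).

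Kcnn2 measured 16.6, 14.1, 16.9 and 17.9 CPM with antimiR-195, below the 19.6 to 23.8 CPM with PBS, with a fitted change of −0.36 ± 0.109 on the log2 scale (adjusted p = 0.253). Kcna7 measured 11.65, 7.96, 9.14 and 9.98 CPM with antimiR-195, against 11.7 to 13.2 CPM with PBS, a separation that was narrow at replicate 1 (−0.37 ± 0.127, adjusted p = 0.253). Kcnj5 measured 68.6, 63.0, 69.1 and 60.6 CPM with antimiR-195, against 75.2 to 85.4 CPM with PBS (−0.28 ± 0.0916, adjusted p = 0.253). Kcnn4 measured 1.67, 4.22, 3.23 and 2.55 CPM with antimiR-195, the first of which lay inside the PBS range of 1.01 to 2.21 CPM, for a log2 fold change of 0.95 ± 0.307 (adjusted p = 0.253). Kcnab2, clearly separated between Upy-PEG and PBS, was at 0.35 ± 0.163 here (adjusted p = 0.302). Without antimiR-195 replicates 2 and 3 the log2 fold changes were −0.27 for Kcnn2, −0.20 for Kcna7, −0.29 for Kcnj5, 0.50 for Kcnn4 and 0.14 for Kcnab2 (edgeR adjusted p = 0.999 each), so that those of Kcna7, Kcnn4 and Kcnab2 were smaller by more than 1.5 times. No overlap was found for 4 members, 8% of 50 against 6.06% of all genes, with Kcnj15, named after its values were seen, alone on the higher side (2%, against 2.74%) and Kcnn2, Kcna7 and Kcnj5 on the lower (6%, against 3.32%).

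Kcnj11 and Kcnj12 were low in antimiR-195 replicates 2 and 3. Kcnj11 measured 53.7, 18.1, 27.7 and 49.3 CPM with antimiR-195, against 44.6, 66.8, 61.2 and 56.3 CPM with PBS, a log2 fold change of −0.62 ± 0.26 (adjusted p = 0.283) in which the lowest values were those of replicates 2 and 3. The same libraries, replicates 2 and 3, were lowest in Kcnj12, at 10.1 and 15.7 CPM, beside 19.5 and 21.7 CPM in the other antimiR-195 libraries and 18.6 to 29.6 CPM with PBS (−0.53 ± 0.204, adjusted p = 0.269). Kcnh2, with 88.9, 77.4, 93.7 and 84.5 CPM with antimiR-195 against 81.0, 121, 114 and 117 CPM with PBS, stood at −0.33 ± 0.123 (adjusted p = 0.26). Without both libraries Kcnj11 stood at −0.15 and Kcnj12 at −0.23 on the log2 scale.

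The family median against PBS was −0.18, with 36 of 50 members lower (72%, against 49.2% of all genes), and −0.10 without replicates 2 and 3, where 2 members had an unadjusted p under 0.05. The share of all genes for that last count is not given here. Without PBS replicate 2 it was −0.12. The voltage-gated members were lower in 17 of 19 (median −0.21), the inward rectifiers in 5 of 10 (−0.08), the two-pore channels in 3 of 5 (−0.19), the calcium- and sodium-gated in 4 of 6 (−0.27) and the auxiliary subunits in 7 of 10 (−0.08). The core genes were lower in 12 of 13 (median −0.21) and, without replicates 2 and 3, in 10 of 13 (median −0.12). The 12 heart muscle markers were higher in 9 of 12 (median 0.17) with all libraries and lower in 10 of 12 (median −0.04) without those of replicates 2 and 3.

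**Figure D4:**
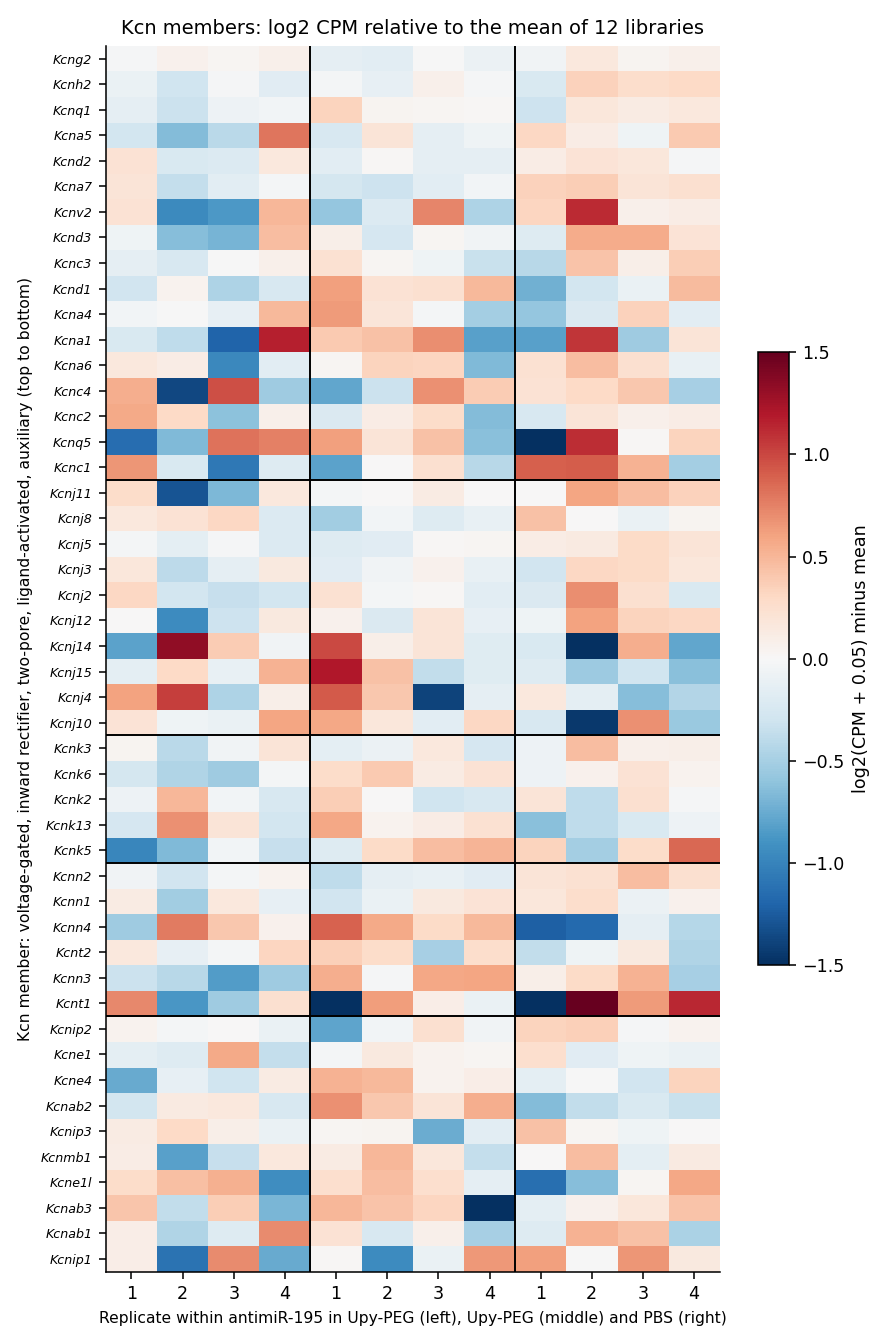
Log2(CPM + 0.05) of 48 of the 50 members in each of the 12 libraries minus the mean of the gene over the 12, with members grouped by role and libraries ordered antimiR-195, Upy-PEG, PBS; blue is below and red above the mean, and colours are saturated beyond ± 1.5. AntimiR-195 replicate 2 holds the lowest value of 14 of the members shown and PBS replicate 2 the highest value of 16.

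The libraries at the ends of the family were few. Replicate 2 of the antimiR-195 group held the lowest CPM of 16 of the 50 members and of 9 of the 13 core genes. PBS replicate 2 held the highest of 17 members and of 8 core genes, and PBS replicate 1 the lowest of 9 members but of 0 core genes. The abundant Kcng2 ran from 114 to 141 CPM over all 12 libraries.

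With both hydrogel groups averaged against PBS, no member passed in edgeR (0% of all genes) or limma voom (0.0271%), and DESeq2 called 5 (Kcna7, Kcnab2, Kcnj5, Kcnn2 and Kcnn4), where it called 2.48% of all genes. At an unadjusted p under 0.05 there were 11 members (22%, against 15.2% of all genes), 4 higher (8%, against 8.67%) and 7 lower (14%, against 6.57%). Kcnn2 stood at −0.42 ± 0.0929, Kcna7 at −0.42 ± 0.108, Kcnj5 at −0.27 ± 0.0785, Kcnn4 at 1.11 ± 0.274 and Kcnab2 at 0.61 ± 0.143 (log2 fold change ± SE, edgeR adjusted p between 0.172 and 0.176), and without antimiR-195 replicates 2 and 3 at −0.375, −0.34, −0.27, 0.89 and 0.50 in that order. Kcnn2, Kcna7 and Kcnj5 were the 3 members in which none of the 8 hydrogel libraries overlapped the PBS libraries, 6% of 50 against 2.25% of all genes, and all 3 were lower (1.22% of all genes, where 1.04% were higher). All 13 core genes were lower than with PBS, with a median of −0.23 and −0.22 without antimiR-195 replicates 2 and 3.

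The partners of potassium channels were read from a list of 29 genes, of which 26 were tested and none passed an adjusted p of 0.05 in edgeR in any comparison. Upy-PEG stood below PBS in 22 of 26, with a median of −0.17. The examples here were chosen after their values were seen. The list includes Abcc9, the SUR2 regulatory subunit that joins Kcnj11 and Kcnj8, with means of 259, 271 and 373 CPM in antimiR-195, Upy-PEG and PBS libraries and a log2 fold change of −0.46 for Upy-PEG against PBS. Ank2, the membrane anchor ankyrin-B, averaged 112, 119 and 148 CPM in the same order of groups. Rgs6, which speeds the closing of the acetylcholine-gated channel, averaged 7.05, 6.51 and 9.11 CPM. Among the 4 partners higher with Upy-PEG than with PBS, Gnai2 averaged 322, 335 and 284 CPM and Cav3 86.8, 64.3 and 63.9 CPM. AntimiR-195 stood below PBS in 19 of 26 partners (median −0.20) and below Upy-PEG in 17 of 26 (median −0.04), while without replicates 2 and 3 these medians were −0.08 and 0.15. Dpp10 and Lrrc26 were at 0 counts in all 12 libraries.

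The other ion currents of heart muscle gave similar counts. Of 24 genes for sodium, calcium, pacemaker and exchange currents, 20 were lower with Upy-PEG than with PBS (median −0.22), 18 lower with antimiR-195 than with PBS (median −0.24) and 14 lower with antimiR-195 than with Upy-PEG (median −0.04), and none passed an adjusted p of 0.05 in edgeR. Without replicates 2 and 3 the medians of the antimiR-195 comparisons were −0.05 against PBS and 0.15 against Upy-PEG. Against PBS a median below 0 was thus measured for potassium channel partners and for other currents as well as for the Kcn genes, and nothing particular to the Kcn genes was tested.

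Markers of other cell types are given beside the members. The 12 macrophage markers were higher with Upy-PEG than with PBS in 12 of 12 (median 0.96), with summed levels of 1436 to 2138 CPM with Upy-PEG and 713 to 1128 CPM with PBS, and none was at 0 in any library. With antimiR-195 the same sum was 976 to 2081 CPM, and the markers were lower than with Upy-PEG in 12 of 12 (median −0.30, and −0.69 without replicates 2 and 3). The 10 fibroblast and matrix markers summed to 2842 to 4771 CPM with antimiR-195, 4100 to 9035 with Upy-PEG and 3080 to 5004 with PBS, again with none at 0. Against PBS they were higher with Upy-PEG in 10 of 10 (median 0.631), though Pdgfra by only 0.024, Tcf21 by 0.095 and Dcn by 0.099. With antimiR-195 they were lower than with Upy-PEG in 8 of 10 (median −0.575), while Dcn and Tcf21 were higher, at 0.074 and 0.072. The T cell markers summed to only 2.97 to 4.45, 1.63 to 4.82 and 1.78 to 3.41 CPM, and Cd3e and Cd3d were each at 0 in 1 library. Kcnn4, known from macrophages, T cells and fibroblasts, and Kcnab2 stood highest in Upy-PEG, the group with the highest macrophage and fibroblast sums. Cycling genes also summed highest there, with means of 50.7, 99.0 and 41.4 CPM in antimiR-195, Upy-PEG and PBS libraries. Neutrophil genes did too, at 17.1, 26.3 and 15.2 CPM, while endothelial and T cell sums averaged highest with antimiR-195. The part of these cells in the values of Kcnn4 and Kcnab2 was not tested.

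**Figure D5:**
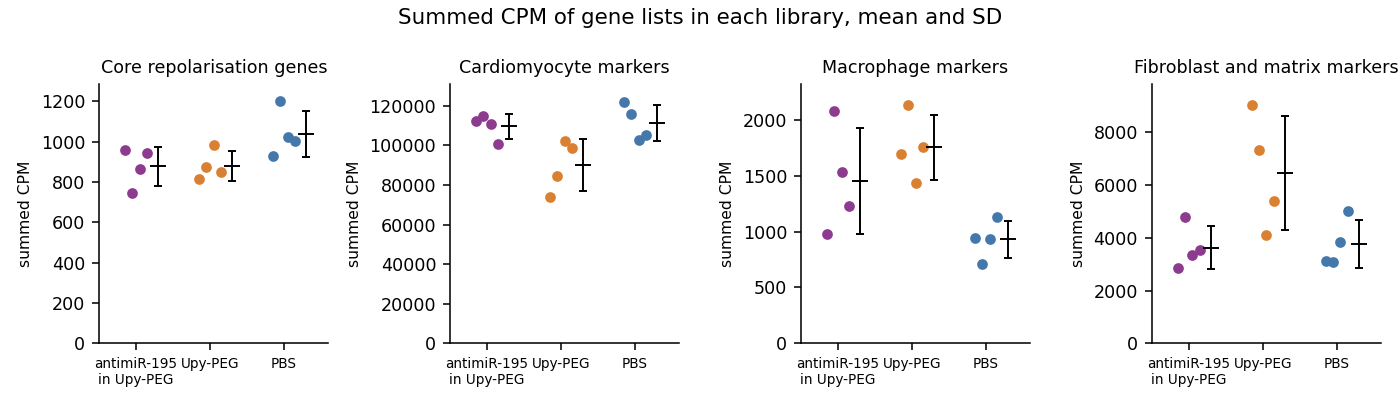
Summed CPM of the core repolarisation genes and of marker lists of heart muscle, macrophages and fibroblasts in each library, by group in the order antimiR-195, Upy-PEG, PBS, with axes from 0. The macrophage sum of every Upy-PEG library lies above that of every PBS library, and the heart muscle sum of every Upy-PEG library below.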

How the data were processed

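Polyadenylated RNA of 12 left ventricle samples was sequenced, 4 per group. The submitters' processing notes name STAR, HTSeq, DESeq and the build GRCm38; their versions, the annotation and the strand setting of the counting are not given in the sources used here. The deposited count of each gene in each library was the input of the tests. The deposited RPKM values, the authors' counts scaled to gene length and library total, were used for levels between genes. Reads on no gene (6.25% to 8.77%) and ambiguous reads (0.664% to 0.898%) stayed out.

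Symbols, coordinates and 3′ UTRs came from GENCODE M21, which held 36429 of 38293 gene IDs and 99.9% of counted reads. Among the members, 18 overlap another annotated gene, 4 of them on the same strand (Kcnab2, Kcnip1, Kcnip3 and Kcnq5), and their counts are uncertain to that extent.

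All genes were fitted in edgeR 4.0.16 (R 4.3.3, limma 3.58.1) with filterByExpr by group, TMM, estimateDisp, glmQLFit and glmQLFTest over all 12 libraries (9 residual degrees of freedom), with Benjamini-Hochberg adjustment over 14770 genes at 0.05. CPM are TMM-scaled. DESeq2 1.42.0, limma voom with sample weights and limma-trend on log2(RPKM + 0.1) and log2(RPKM + 1) were alternatives. The fit was tested on simulated data. In 18 replicate pairs the counts differed beyond sampling noise, with a chi-square of at least 11.9 per degree of freedom.

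Named genes were the 6 members with the lowest p in each comparison (none passed), 13 core repolarisation genes, the 12 highest by RPKM and those next to the count minimum. The members, lists and tests were chosen with earlier results of these data known. The individual results of a few genes are not reported here, and these genes remain in the fits and in the counts and medians of lists.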

Additional observations from a re-analysis of the deposited data

Results flagged for a closer look

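Among 24 named members in 3 groups each, 6 of 72 groups held 1 library whose gap to its nearest neighbour passed Dixon's critical value for 4 samples, and chance gives about 1 in 20 such groups. Of these, Kcna5 measured 27.6 CPM in antimiR-195 replicate 4, beside 10.1 to 13.0 CPM in the other libraries of its group. Kcnj2 measured 53.4 CPM in antimiR-195 replicate 1, beside 33.8 to 35.6 CPM. Kcnn3 measured 0.297 CPM in Upy-PEG replicate 2, beside 0.466 to 0.480 CPM. Kcnq1 met the criterion in 2 groups, with 59.3 CPM in Upy-PEG replicate 1, beside 47.5 to 48.1 CPM, and 37.7 CPM in PBS replicate 1, beside 50.9 to 52.7 CPM. Kcnn2 measured 23.8 CPM in PBS replicate 3, beside 19.6 to 20.3 CPM.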

How the results depend on the processing

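Of the settings compared with the values reported, RLE size factors, a mean CPM of at least 1 and 10 counts in all 12 libraries changed no call and no direction. For Upy-PEG against PBS, 0 members were called, and 1 with no filter, 2 with only the libraries compared, 3 at an adjusted p under 0.10, 4 in DESeq2, without both antimiR-195 libraries that stand apart or with the gene length slope as a covariate, 6 in limma voom, and 0 to 3 with 1 library left out. DESeq2 called 5 for both hydrogel groups against PBS. Among these settings, shares of all genes called are given above for DESeq2 and limma voom alone. The other counts are therefore no result about the channels as such. The family median for Upy-PEG against PBS was −0.018 on log2(RPKM + 0.1) and −0.01 on log2(RPKM + 1), and that for antimiR-195 against Upy-PEG −0.213 with library totals alone. Of 49 members 1 held an 8mer site (2.04%, against 4.54% of all genes) and 32 a site with 6-mers included (65.3%, against 45.6% of all genes). Without both of those libraries the median for antimiR-195 against Upy-PEG was 0.06, against −0.06 with them. Among the named members, directions reversed in core genes that were not called. For antimiR-195 against Upy-PEG, with library totals alone, log2(RPKM + 0.1) and log2(RPKM + 1), Kcnj3 was at −0.116, −0.134 and −0.124, Kcnd2 at −0.048, −0.061 and −0.05, Kcnip2 at −0.036, −0.005 and −0.005, Kcna5 at −0.088, −0.214 and −0.17 and Kcnk3 at −0.109, −0.122 and −0.121. In limma voom Kcnj2 was at 0.015, Kcnj5 at 0.001 and Kcna5 at −0.067. Without both libraries Kcnj2 was at 0.028, Kcnj12 at 0.093 and Kcnj11 at 0.19, and with the length covariate Kcnj2 at 0.073 and Kcnj12 at 0.022. For antimiR-195 against PBS, without both libraries Kcnj3 was at 0.027, Kcnj8 at −0.119, Kcnd2 at 0.073 and Kcna5 at 0.18, and with the length covariate Kcnj3 at 0.035, Kcnj8 at −0.194 and Kcnd2 at 0.009, while Kcnj8 was at −0.037 with library totals, −0.026 on log2(RPKM + 0.1) and −0.025 on log2(RPKM + 1). Kcnq1 was at −0.043 in limma voom for Upy-PEG against PBS and at 0.04 with the length covariate for both groups against PBS. With 1 library left out, signs also turned for Kcnj2 (−0.269 to 0.069) and Kcnq1 (−0.036 to 0.11) in Upy-PEG against PBS. They turned for Kcnj3 (−0.056 to 0.126), Kcnj5 (−0.062 to 0.015), Kcnip2 (−0.069 to 0.23), Kcna5 (−0.384 to 0.2) and Kcnk3 (−0.051 to 0.135) in antimiR-195 against Upy-PEG, and for Kcnj8 (−0.044 to 0.148) in antimiR-195 against PBS. The cause of these reversals was not tested. No paired analysis was possible because the labels give no replicate numbers, and those used here follow the order of deposition. Levels taken as TMM-scaled CPM per kilobase moved 7 group values by at least the SD of their group and left 30 values the same. With antimiR-195 Kcnip2 was then at 47.5 and Kcnj5 at 14.5. With Upy-PEG Kcng2 was at 42.4, Kcnj11 at 38.5, Kcnh2 at 19.35, Kcnj5 at 14.8 and Kcnj3 at 12.7. Members such as Kcnn3, with 3 to 15 counts a library, were limited by depth.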
